A study of Mus musculus with 12 samples.

Results

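Rectal gene expression was compared between 3 colitis mice receiving berberine (BBR) and 3 colitis mice, to ask which genes differ when the drug is given while colitis develops. These 6 samples were taken by their group labels from a series of 12 mice, which also holds 3 normal mice and 3 normal mice receiving BBR. All were adult male C57BL/6 mice, a common inbred strain, with no transgene. Colitis mice had dextran sulfate sodium (DSS), a sulfated polysaccharide that injures the lining of the large bowel, for 7 days, and colitis mice receiving BBR had the same DSS with BBR by gavage, for 6 days by the protocol in the labels but from day 1 to day 7 by the methods. The study's methods call the tissue rectum and the labels call it colorectum, so both the muscle wall and the mucosa may be in it. Levels are in FPKM, a unit that allows for the length of a transcript and the depth of a library, and 15315 of the 17734 genes in the table, those with a mean of at least 0.1 FPKM over the 12 mice, were tested. In each sentence of values the order is colitis mice 1, 2 and 4, then colitis mice 2, 3 and 4 receiving BBR, and a log2 fold change is the latter group minus the former on the log2(FPKM + 0.1) scale, given with its standard error (SE) and the Benjamini-Hochberg adjusted p of limma.

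BBR is a plant alkaloid taken by mouth against diarrhoea, and it is poorly absorbed, so the bowel meets more of it than other organs do. In DSS colitis the epithelium is breached, bacteria reach the tissue beneath, and neutrophils and monocytes enter from the blood in answer to chemokines and colony-stimulating factors. These cells and the activated fibroblasts beneath the epithelium secrete interleukin-1, interleukin-6 and matrix metalloproteinases (MMPs), enzymes that cut collagen and other matrix proteins, while surviving epithelial cells turn on antimicrobial proteins and a regenerating programme.

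The genes named first are those with the largest changes whose groups did not overlap, with a mean of at least 1 FPKM and an unadjusted P of at most 0.05 (the naming rule). Of the 12 largest falls with BBR, 7 were members of the lists described here and 5 belonged to no list. The 7 were the matrix metalloproteinases Mmp13 and Mmp3, the chemokines Cxcl2 and Cxcl9, the growth factor Csf3, the cytokine Il1b and the mitotic cyclin Ccnb2. The largest rises were those of Slc30a10, a manganese exporter, Car3, a carbonic anhydrase, and Upk3b, a uroplakin. An unadjusted P of at most 0.05 in limma, the limit in the study's methods, is called the P limit here. At it, 5.2% of all tested genes (796) were lower with BBR and 1.19% (182) were higher. These shares are the background for counts below from the fit of all mice. In other fits the background differs. It was 376 genes lower and 120 higher without BBR-treated mouse 2, 1154 and 499 without mouse 3, and 1461 and 201 without mouse 4. Without colitis mouse 1 it was 929 and 113, without mouse 2 645 and 264, and without mouse 4 673 and 242. With a block for the mice numbered 4 in the fit it was 1195 and 320. The groups did not overlap for 5.66% of genes on the lower side and 1.42% on the higher side. No gene passed limma's Benjamini-Hochberg adjusted limit of 0.05 (978 genes, 6.39% of all, reached the P limit), so "lower" and "higher" below describe levels. Over all genes the middle log2 fold change was −0.09, and 62.0% of genes were lower with BBR. This split depends on single mice. Without colitis mouse 4 the median was 0.02 with 7333 of 15315 genes lower, and without BBR-treated mouse 4 it was −0.25. It depends on the scaling between mice too, since after quantile normalization the median was 0.04, and 485 genes were higher against 630 lower at the P limit. After centring each mouse on its median it was 0.06, and the log2 fold changes of all genes rose by the same amount, so a list median near 0 has no firm sign.

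The 6 libraries were not alike within their groups. The colitis mouse and the BBR-treated colitis mouse numbered 4, like the other mice of that number, had column totals of 482194 to 504337 against 696286 to 765876 in the mice numbered 1 to 3, and 1 read was worth 50.5 to 57.5 FPKM × bases in them against 71.0 to 78.5 in the others. What the number 4 stands for is not given in the sources used here. On the first principal component, which held 48.8% of the variance, BBR-treated colitis mouse 4 lay at −42.2, among the normal mice (−69.4 to −30.2), BBR-treated colitis mouse 3 at 88.3 and mouse 2 at 65.8. Colitis mouse 4 stood apart from its group too, at 1.55, where colitis mice 1 and 2 were at 84.3 and 81.1. BBR-treated colitis mouse 3 lay inside the range of the colitis mice for 59.5% of genes, mouse 2 for 47.4% and mouse 4 for 44.6%. Among the 796 genes lower at the P limit, the highest of the 3 BBR-treated values was mouse 3 for 62.1% of genes, mouse 4 for 30.0% and mouse 2 for 6.91%, where over all genes these shares were 22.5%, 61.0% and 15.7%. Nothing in the labels says how the mice were housed or treated apart, so p-values measure only the spread between these samples.

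Matrix metalloproteinases were among the genes that differed most. Mmp13, the main interstitial collagenase of the mouse, was at 27.01, 162 and 9.99 FPKM in the colitis mice and at 1.24, 3.49 and 0.12 FPKM in those receiving BBR, a log2 fold change of −5.12 ± 1.02 (adjusted p = 0.418). The groups did not overlap, which the naming rule requires, and the BBR-treated values spanned those of the normal mice (1.19 to 2.93 FPKM). Mmp3 (stromelysin 1), which activates other MMPs, was at 25.0, 83.4 and 17.7 FPKM against 2.95, 11.6 and 0.39 FPKM, again without overlap (−3.69 ± 0.99, adjusted p = 0.486). Mmp10 (stromelysin 2) was at 48.9, 236 and 6.02 FPKM against 1.72, 6.37 and 0.00 FPKM, where BBR-treated mouse 3 was just above colitis mouse 4 (−5.29 ± 1.47, adjusted p = 0.486). Mmp7 (matrilysin) was low throughout, at 0.81, 1.89 and 1.15 FPKM against 0.10, 0.00 and 0.05 FPKM, but varied little within groups, and its unadjusted P was among the 5 smallest of the comparison (−3.19 ± 0.46, adjusted p = 0.0875). The BBR-treated values are a few reads at most, since 3 reads on a transcript of 2000 bases come to 0.0777 to 0.121 FPKM over the 12 mice.

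The rest of the list went the same way. Of 22 tested genes for matrix proteases, their inhibitors and plasminogen activation, 21 were lower with BBR, 13 of them at the P limit and none higher at it, and the list had a median of −1.54 on the log2 scale, where all genes had −0.09. The groups did not overlap for 8 of the 22. Mmp12, the macrophage elastase, was at 1.72, 5.92 and 0.88 FPKM against 0.70, 0.35 and 0.18 FPKM (−2.25 ± 0.62, adjusted p = 0.486). Plau (urokinase), which turns plasminogen into plasmin, was at 8.11, 27.02 and 4.78 FPKM against 0.96, 3.45 and 3.26 FPKM (−2.14 ± 0.65, adjusted p = 0.512). Adamts4, which cuts aggrecan and related proteoglycans, was at 0.96, 3.76 and 2.76 FPKM against 0.20, 0.93 and 0.32 FPKM (−2.16 ± 0.56, adjusted p = 0.486). The fibroblast gelatinase Mmp2 was at 6.09, 21.7 and 15.5 FPKM against 3.06, 2.59 and 10.01 FPKM, with overlap (−1.54 ± 0.50, adjusted p = 0.568), and the normal mice had 17.2 to 22.1 FPKM, above all but colitis mouse 2. The count at the P limit was 10 to 16 when each mouse was left out in turn.

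**Figure D1:**
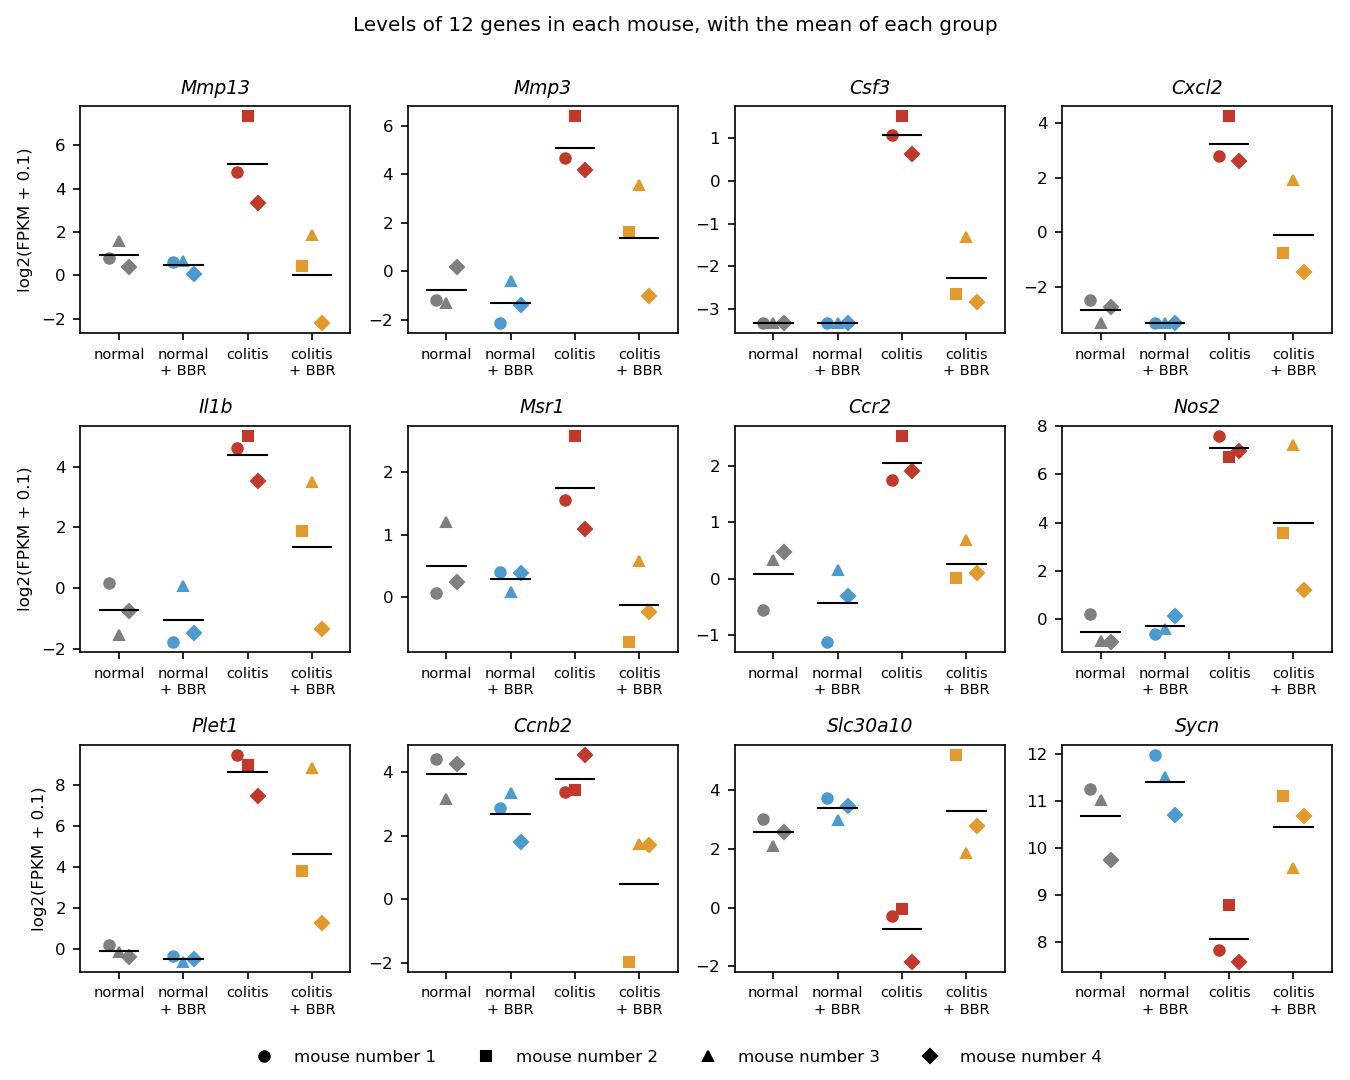
Levels of 12 genes in each of the 12 mice, as log2(FPKM + 0.1), by group, with marker shapes for the mouse number and a line for the mean of the 3 mice of a group. Mmp13, Mmp3, Csf3, Cxcl2, Il1b, Msr1, Ccr2 and Ccnb2 were lower in every colitis mouse receiving BBR than in every colitis mouse, Slc30a10 and Sycn were higher in every one, and for Nos2 and Plet1 BBR-treated mouse 3 lay among the colitis mice. Mmp13, Mmp3, Csf3, Cxcl2, Il1b, Ccnb2, Slc30a10 and Sycn were named by a rule that requires no overlap.

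The promoters of 3 of these MMPs are shown because the genes lie in one cluster on chromosome 9, were lower together, and carry the same short motif. Each line gives the 150 bases before the transcription start, 5′ to 3′ on the gene's strand, from RefSeq on GRCm38.p6 (the expression values were made on mm9, so the coordinates are of another build than the files), with the AP-1 motif TGAGTCA or its reverse complement TGACTCA in capitals. AP-1 is the dimer of Fos and Jun proteins.
Mmp3, chr9:7445672-7445821, plus strand: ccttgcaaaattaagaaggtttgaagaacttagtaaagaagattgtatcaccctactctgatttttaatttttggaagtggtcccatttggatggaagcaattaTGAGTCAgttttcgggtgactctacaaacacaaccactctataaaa
Mmp10, chr9:7502192-7502341, plus strand: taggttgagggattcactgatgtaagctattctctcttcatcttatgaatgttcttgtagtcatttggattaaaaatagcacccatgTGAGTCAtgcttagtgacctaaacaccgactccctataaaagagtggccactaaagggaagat
Mmp13, chr9:7272364-7272513, plus strand: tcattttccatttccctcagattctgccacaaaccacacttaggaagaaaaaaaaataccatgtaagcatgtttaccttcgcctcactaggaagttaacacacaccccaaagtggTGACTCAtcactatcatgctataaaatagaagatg
The motif starts 46 bases before the transcription start in Mmp3, 63 bases before it in Mmp10 and 35 bases before it in Mmp13. Searched on both strands in the 250 bases before the start, it was found in 6 of the 16 list genes that have a promoter entry (Mmp3, Mmp7, Mmp10, Mmp12, Mmp13 and Plaur) and in 5.16% of 27025 genes. Most of the 6 lie together on chromosome 9 and are not independent matches, so these shares are no test. The 16 include Serpinb2, which was below the filter. A match of letters is a description and does not show that a factor binds there.

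Chemokines and colony-stimulating factors that draw or feed myeloid cells were lower as well. Csf3 (granulocyte colony-stimulating factor), which drives neutrophil production, was at 2.03, 2.76 and 1.44 FPKM in the colitis mice and at 0.06, 0.30 and 0.04 FPKM in those receiving BBR, and was listed at 0 in all 3 normal mice. Its unadjusted P was the smallest of all genes (−3.34 ± 0.43, adjusted p = 0.0844). Cxcl2, a neutrophil attractant that binds Cxcr2, was at 6.93, 19.0 and 6.09 FPKM against 0.49, 3.73 and 0.26 FPKM (−3.33 ± 0.75, adjusted p = 0.435). Cxcl9, an interferon-gamma-induced attractant of T cells, was at 7.39, 32.0 and 4.47 FPKM against 0.33, 3.40 and 0.66 FPKM (−3.30 ± 0.80, adjusted p = 0.435). The groups did not overlap for any of these 3 genes, which the naming rule requires.

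Ccl2, which brings monocytes out of the blood through Ccr2, was at 14.9, 30.4 and 7.32 FPKM against 0.50, 7.28 and 1.54 FPKM, so that BBR-treated mouse 3 and colitis mouse 4 were almost level (−2.96 ± 0.84, adjusted p = 0.51). Cxcl13, which draws B cells to lymphoid follicles, was at 38.6, 135 and 18.4 FPKM against 7.34, 7.45 and 8.09 FPKM, a narrow range in the BBR-treated mice that stayed above the normal mice (2.85 to 5.82 FPKM) in all 3 (−2.57 ± 0.66, adjusted p = 0.486). Cxcl12, the stromal ligand of Cxcr4, was at 17.6, 55.8 and 20.9 FPKM against 9.48, 6.71 and 17.4 FPKM (−1.39 ± 0.42, adjusted p = 0.512). Ccl25, an epithelial attractant of gut-homing lymphocytes, went the other way, at 1.03, 0.67 and 1.33 FPKM against 1.48, 1.95 and 2.02 FPKM (0.82 ± 0.34, adjusted p = 0.717). In all, 26 of 33 tested members were lower, 12 of them at the P limit against 1 higher, and the median was −0.97. The count lower at the P limit was 6 without colitis mouse 2, 7 without BBR-treated mouse 4, 8 without BBR-treated mouse 2 and 18 without BBR-treated mouse 3. The median ran from −0.61 without colitis mouse 2 to −1.47 without BBR-treated mouse 3.

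The Cxcl1, Cxcl2 and Cxcl3 genes lie near each other on chromosome 5, and 2 of their promoters are shown because both hold the same 10-base motif, a form of the site bound by NF-kappaB, in capitals. The sequences are the 150 bases before the transcription start, 5′ to 3′, from RefSeq on GRCm38.p6.
Cxcl1, chr5:90891095-90891244, plus strand: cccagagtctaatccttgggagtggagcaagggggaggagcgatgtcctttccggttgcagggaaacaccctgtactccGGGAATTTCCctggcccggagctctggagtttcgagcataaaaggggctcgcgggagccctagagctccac
Cxcl2, chr5:90903749-90903898, plus strand: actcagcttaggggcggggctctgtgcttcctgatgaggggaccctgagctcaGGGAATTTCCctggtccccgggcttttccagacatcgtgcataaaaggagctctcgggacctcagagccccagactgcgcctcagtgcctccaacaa
Searched on both strands, this motif starts 71 bases before the start in Cxcl1, 97 in Cxcl2 and 73 in Cxcl3. It was found in these 3 of the 26 list genes that have a promoter entry and in 0.104% of 27025 genes, in windows of 250 bases. The 3 are near-identical neighbours and are not independent matches, so these shares are no test. The 26 include Csf2 and Cxcl15, which were below the filter. Cxcl1 itself was at 19.0, 103 and 13.2 FPKM against 11.7, 30.1 and 0.99 FPKM, with overlap, and did not pass the P limit (−2.03 ± 1.03, adjusted p = 0.84). Cxcl3 was at 4.58, 7.74 and 1.16 FPKM against 0.09, 3.61 and 0.00 FPKM (−3.12 ± 1.08, adjusted p = 0.608). These near-identical genes can share reads, which RSEM, the authors' tool, divides between genes by estimation, so their values are uncertain.

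Among cytokines the genes lower at the P limit were 2 of interleukin-1, 3 of the interleukin-6 family and a subunit of activin. Il1b was at 24.4, 32.5 and 11.6 FPKM against 3.58, 11.2 and 0.29 FPKM (−3.06 ± 1.01, adjusted p = 0.568), and BBR-treated mouse 3 was only just below colitis mouse 4. Il1a, which dying cells release, was at 1.89, 3.21 and 1.79 FPKM against 0.42, 1.11 and 0.11 FPKM (−2.19 ± 0.55, adjusted p = 0.477). Il6 was at 4.01, 5.48 and 1.49 FPKM against 0.15, 1.51 and 0.05 FPKM (−3.08 ± 0.76, adjusted p = 0.454). Il11, a fibroblast cytokine that signals through the same receptor chain, gp130, was at 4.35, 12.9 and 2.56 FPKM against 0.32, 1.49 and 0.53 FPKM without overlap (−2.84 ± 0.71, adjusted p = 0.477). Osm (oncostatin M), the myeloid member of that family, was at 0.67, 0.63 and 0.30 FPKM against 0.08, 0.12 and 0.03 FPKM (−1.82 ± 0.47, adjusted p = 0.486). Inhba, the activin A subunit, was at 0.93, 2.81 and 0.88 FPKM against 0.06, 0.49 and 0.54 FPKM (−1.87 ± 0.64, adjusted p = 0.595).

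Of 21 tested inflammatory cytokines 19 were lower, 6 at the P limit and none higher at it, with a median of −1.02. The count was 12 without BBR-treated mouse 3. The median ran from −0.57 without colitis mouse 2 to −1.54 without BBR-treated mouse 3. Tnf was not among the 6. It was at 17.2, 23.4 and 8.94 FPKM against 7.68, 33.8 and 2.15 FPKM, with BBR-treated mouse 3 the highest of the 6 mice (−0.88 ± 0.74, adjusted p = 1.00). Among the receptors and kinases on which these cytokines act the shares were smaller, with 24 of 33 tested genes for gp130 receptors, Jak kinases, Stats and Socs lower, 5 at the P limit, and a median of −0.21, a count that was 2 without colitis mouse 2 or BBR-treated mouse 4 and 1 without BBR-treated mouse 2. The median ran from −0.08 without colitis mouse 4 to −0.40 without BBR-treated mouse 4. After centring it was −0.06 with 1 gene lower and 1 higher at the limit, and after quantile normalization −0.08 with 3 lower and 1 higher. Csf2rb, the shared chain of the receptors for Il3, Il5 and Csf2, was at 2.15, 3.67 and 2.98 FPKM against 0.73, 1.46 and 0.81 FPKM (−1.49 ± 0.46, adjusted p = 0.512). For NF-kappaB components and feedback genes 20 of 25 were lower and 2 (Tnfaip2 and Cd40) passed the P limit, with a median of −0.19, and the count was 5 without BBR-treated mouse 3, 1 without BBR-treated mouse 4 and 0 without colitis mouse 2 or BBR-treated mouse 2. The median ran from −0.07 without BBR-treated mouse 2 to −0.29 without BBR-treated mouse 3. After centring 13 of the 25 were lower with a median of −0.04, and after quantile normalization 16 with −0.07. Of 21 prostaglandin and leukotriene genes 12 were lower and 5 passed the P limit, with a median of −0.22 that ran from −0.13 without colitis mouse 4 to −0.40 without colitis mouse 1 and was −0.07 after centring. Ptgs2 (cyclooxygenase 2), the inducible enzyme of prostaglandin synthesis, was at 4.65, 8.71 and 2.09 FPKM against 0.05, 2.40 and 0.71 FPKM (−2.75 ± 0.84, adjusted p = 0.512). Ptges, which makes prostaglandin E2 from its product, was at 4.27, 7.88 and 4.48 FPKM against 2.47, 2.81 and 2.43 FPKM without overlap (−1.03 ± 0.33, adjusted p = 0.568).

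**Figure D2:**
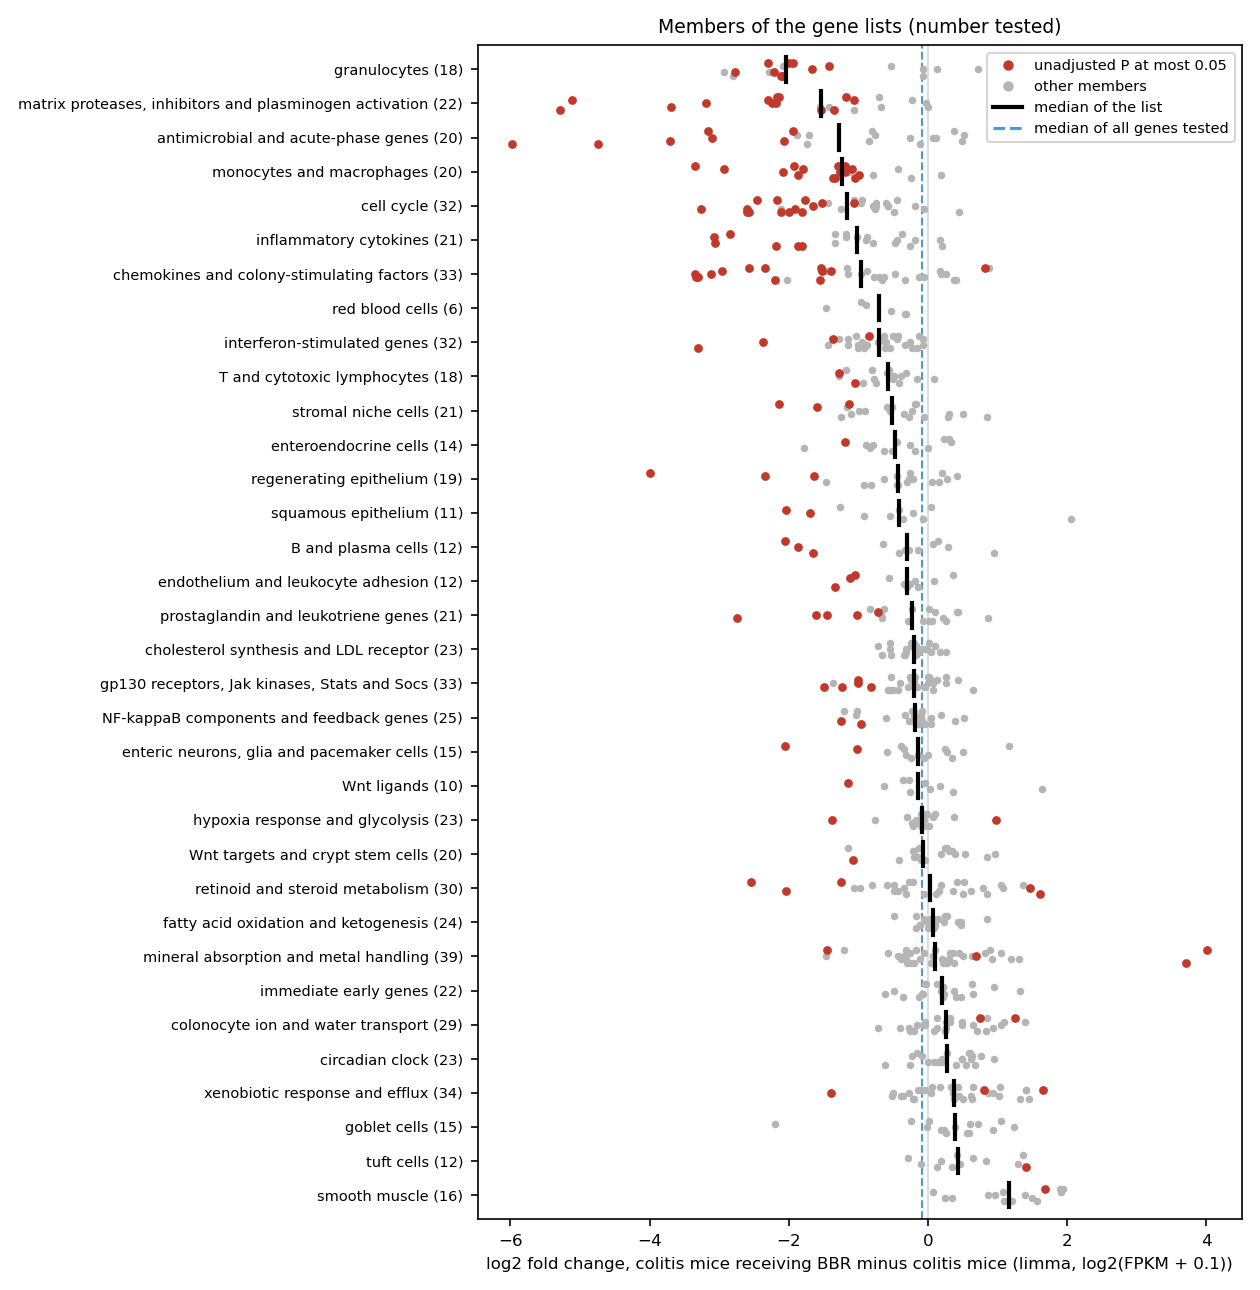
Log2 fold change of every tested member of 34 gene lists, colitis mice receiving BBR minus colitis mice, with red points for an unadjusted P of at most 0.05, a black bar for the median of each list and a dashed line for the median of all genes, −0.09. The list medians ran from −2.04 for granulocytes to 1.16 for smooth muscle, and a member can stand in more than 1 list.

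Markers of monocytes and macrophages had the highest share of members past the P limit of the 34 lists, with 15 of 20 tested genes lower at the limit, none higher at it, 11 without overlap, and a median of −1.23. In bulk tissue, fewer cells of a type and less RNA per cell cannot be told apart. Ccr2, the receptor of newly arrived monocytes, was at 3.24, 5.67 and 3.63 FPKM against 0.91, 1.51 and 0.97 FPKM (−1.79 ± 0.42, adjusted p = 0.435), and the normal mice were at 0.58 to 1.28 FPKM. Msr1, a scavenger receptor, was at 2.83, 5.88 and 2.03 FPKM against 0.51, 1.40 and 0.75 FPKM (−1.86 ± 0.47, adjusted p = 0.485). Chil3, a secreted chitinase-like protein of activated macrophages, was at 14.4, 44.3 and 2.15 FPKM against 3.04, 1.14 and 0.25 FPKM, with overlap (−3.35 ± 0.97, adjusted p = 0.51).

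Csf1r, the receptor on which macrophages depend for survival, was at 5.01, 12.4 and 7.08 FPKM against 3.13, 3.56 and 3.21 FPKM (−1.19 ± 0.31, adjusted p = 0.486), below the normal mice (5.83 to 8.74 FPKM) as well. The complement gene C1qa was at 43.7, 136 and 51.8 FPKM against 30.6, 40.2 and 25.6 FPKM (−1.1 ± 0.37, adjusted p = 0.584). Cx3cr1, a receptor of mature gut macrophages, was at 1.29, 1.57 and 1.56 FPKM against 0.32, 0.60 and 0.84 FPKM (−1.27 ± 0.37, adjusted p = 0.51), where the normal mice had 1.84 to 2.75 FPKM. Cd14, the lipopolysaccharide co-receptor, did not pass the P limit, at 65.5, 62.5 and 63.4 FPKM against 47.3, 86.6 and 25.7 FPKM. The lysosomal Cd68 did not pass it either, at 12.3, 34.9 and 10.4 FPKM against 22.9, 12.9 and 9.16 FPKM. The count of 15 was 10 without colitis mouse 2, which had the highest value of the 6 mice in all 15 of these genes. It was 9 when each mouse was centred on its median, a lower share than the 12 of 22 matrix protease genes then had.

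Of 18 tested granulocyte markers 16 were lower with the lowest median of the lists, −2.04, and 9 passed the P limit and 3 did not overlap. S100a8, a calprotectin subunit that neutrophils carry in bulk, was at 336, 289.7 and 24.9 FPKM against 118, 148 and 0.31 FPKM (−2.80 ± 1.79, adjusted p = 0.962) and was listed at 0 in all 3 normal mice. The formyl peptide receptor Fpr2, which senses bacterial peptides, was at 2.46, 6.14 and 0.98 FPKM against 0.78, 0.58 and 0.26 FPKM without overlap (−2.11 ± 0.61, adjusted p = 0.51). Il1r2, a decoy receptor for interleukin-1, was at 6.12, 17.9 and 2.34 FPKM against 0.59, 3.52 and 0.24 FPKM (−2.78 ± 0.84, adjusted p = 0.512). Without Ly6g, which was at 259 to 707 FPKM in normal mice, where S100a8 was listed at 0, the levels of the other 17 markers summed to 537, 557 and 80.0 FPKM against 238, 246 and 6.57 FPKM. BBR-treated mice 2 and 3 lay between colitis mouse 4 and the other colitis mice in this sum. With Ly6g the 18 markers summed to 1943, 4267 and 637 FPKM against 2110, 2995 and 495 FPKM, so the fall in the sum depends on leaving Ly6g out. The count of 9 was 5 without colitis mouse 2 or without BBR-treated mouse 4, and 6 without colitis mouse 1. It was also 5 after quantile normalization, after centring and with a pseudocount of 0.01. The median was −0.86 without BBR-treated mouse 4, where that of the matrix proteases was −1.78, and −0.85 with a pseudocount of 1, where that of the matrix proteases was −1.11, and among the mice numbered 1 to 3 it was −1.44 against −1.68, so its place below the other lists was lost in all 3.

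Fewer lymphocyte markers passed the P limit. Of 18 tested genes of T and cytotoxic lymphocytes 17 were lower, 2 of them at the P limit, with a median of −0.57, and the count was 4 without BBR-treated mouse 3 and 1 without colitis mouse 4 or BBR-treated mouse 2. The median ran from −0.20 without BBR-treated mouse 4 to −0.94 without BBR-treated mouse 3. The 2 genes were Cd4, at 0.94, 2.10 and 1.47 FPKM against 0.33, 0.67 and 0.66 FPKM (−1.28 ± 0.42, adjusted p = 0.568), and the costimulatory receptor Icos, at 0.33, 0.27 and 0.51 FPKM against 0.07, 0.18 and 0.13 FPKM (−1.05 ± 0.40, adjusted p = 0.656). Of 12 B and plasma cell genes 8 were lower, 3 of them at the limit, and 4 were higher, by up to 0.94 on the log2 scale. The median was −0.31, but 0.11 without BBR-treated mouse 2 and −0.68 without BBR-treated mouse 4. All 3 at the limit belong to plasma cells. Jchain, which joins IgA into dimers for transport into the gut, was at 71.6, 89.5 and 32.4 FPKM against 4.48, 21.7 and 29.0 FPKM (−2.05 ± 0.59, adjusted p = 0.51), and the normal mice had 173 to 235 FPKM. Mzb1, a chaperone of antibody secretion, was at 2.05, 5.20 and 1.48 FPKM against 0.21, 1.38 and 1.17 FPKM (−1.65 ± 0.58, adjusted p = 0.615). BBR-treated mouse 2 was the lowest of the 6 mice in both, and all 6 mice were below the normal mice.

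Some genes that inflamed epithelium turns on split the BBR-treated mice. Reg3b, a bactericidal lectin, was at 401, 53.6 and 27.5 FPKM in the colitis mice and at 0.00, 75.3 and 0.22 FPKM in those receiving BBR (−5.97 ± 1.89, adjusted p = 0.548), with the normal mice at 0.00 to 0.14 FPKM. Nos2, the inducible nitric oxide synthase, was at 192, 105 and 125 FPKM against 11.7, 148 and 2.21 FPKM (−3.10 ± 1.08, adjusted p = 0.608). Plet1, a surface protein of regenerating colonic epithelium, was at 690.2, 493 and 175 FPKM against 13.7, 443 and 2.32 FPKM (−3.99 ± 1.35, adjusted p = 0.589). Clca4b, a secreted protein of the same epithelium, was at 3067, 3291 and 1636 FPKM against 378, 3367 and 100.3 FPKM (−2.34 ± 0.98, adjusted p = 0.718). In each of these 4 genes BBR-treated mice 2 and 4 were below every colitis mouse, and BBR-treated mouse 3 was inside the colitis range or, for Clca4b, just above it. The 4 were chosen after their values were seen, so the shared pattern is no finding. BBR-treated mouse 3 lay inside the colitis range for 59.5% of all genes.

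The list counts moved when single mice were left out. Of 20 antimicrobial and acute-phase genes 15 were lower, 7 at the P limit, with a median of −1.28, and the count was 12 without BBR-treated mouse 3 and 4 without colitis mouse 2 or without BBR-treated mouse 4. The median was −0.41 without BBR-treated mouse 4, −0.76 without colitis mouse 2 and −1.98 without BBR-treated mouse 3. Saa3, an acute-phase protein, was at 433, 2181 and 59.7 FPKM against 38.0, 63.6 and 1.13 FPKM (−4.74 ± 1.54, adjusted p = 0.568), while its relative Saa1, at 8042, 15572 and 3226 FPKM against 25674, 17585 and 2639 FPKM, did not pass the limit (0.52 ± 0.98, adjusted p = 1.00). Lrg1 was at 153, 32.9 and 222 FPKM against 4.86, 58.5 and 5.24 FPKM (−3.17 ± 0.91, adjusted p = 0.51). All 32 tested interferon-stimulated genes were lower, with a median of −0.71, but 4 passed the P limit with all mice, 20 without BBR-treated mouse 3, 2 without colitis mouse 4 or BBR-treated mouse 4 and 1 without BBR-treated mouse 2. The median ran from −0.47 without BBR-treated mouse 4 to −1.26 without BBR-treated mouse 3. Ifit2, which binds viral RNA, was at 68.6, 36.5 and 48.5 FPKM against 6.12, 53.0 and 2.57 FPKM (−2.37 ± 0.87, adjusted p = 0.633). Of 19 genes of regenerating epithelium 14 were lower, 3 at the P limit, 6 without BBR-treated mouse 3 and 1 without colitis mouse 2 or either of the other BBR-treated mice, with a median of −0.43. Without colitis mouse 2 the median was −0.03 with 10 of 19 lower, without BBR-treated mouse 4 it was −0.12, and without colitis mouse 4 it was −0.80. Ereg (epiregulin), a ligand of the EGF receptor, was the one without overlap, at 7.37, 18.1 and 6.08 FPKM against 1.71, 5.42 and 2.68 FPKM (−1.64 ± 0.56, adjusted p = 0.594).

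**Figure D3:**
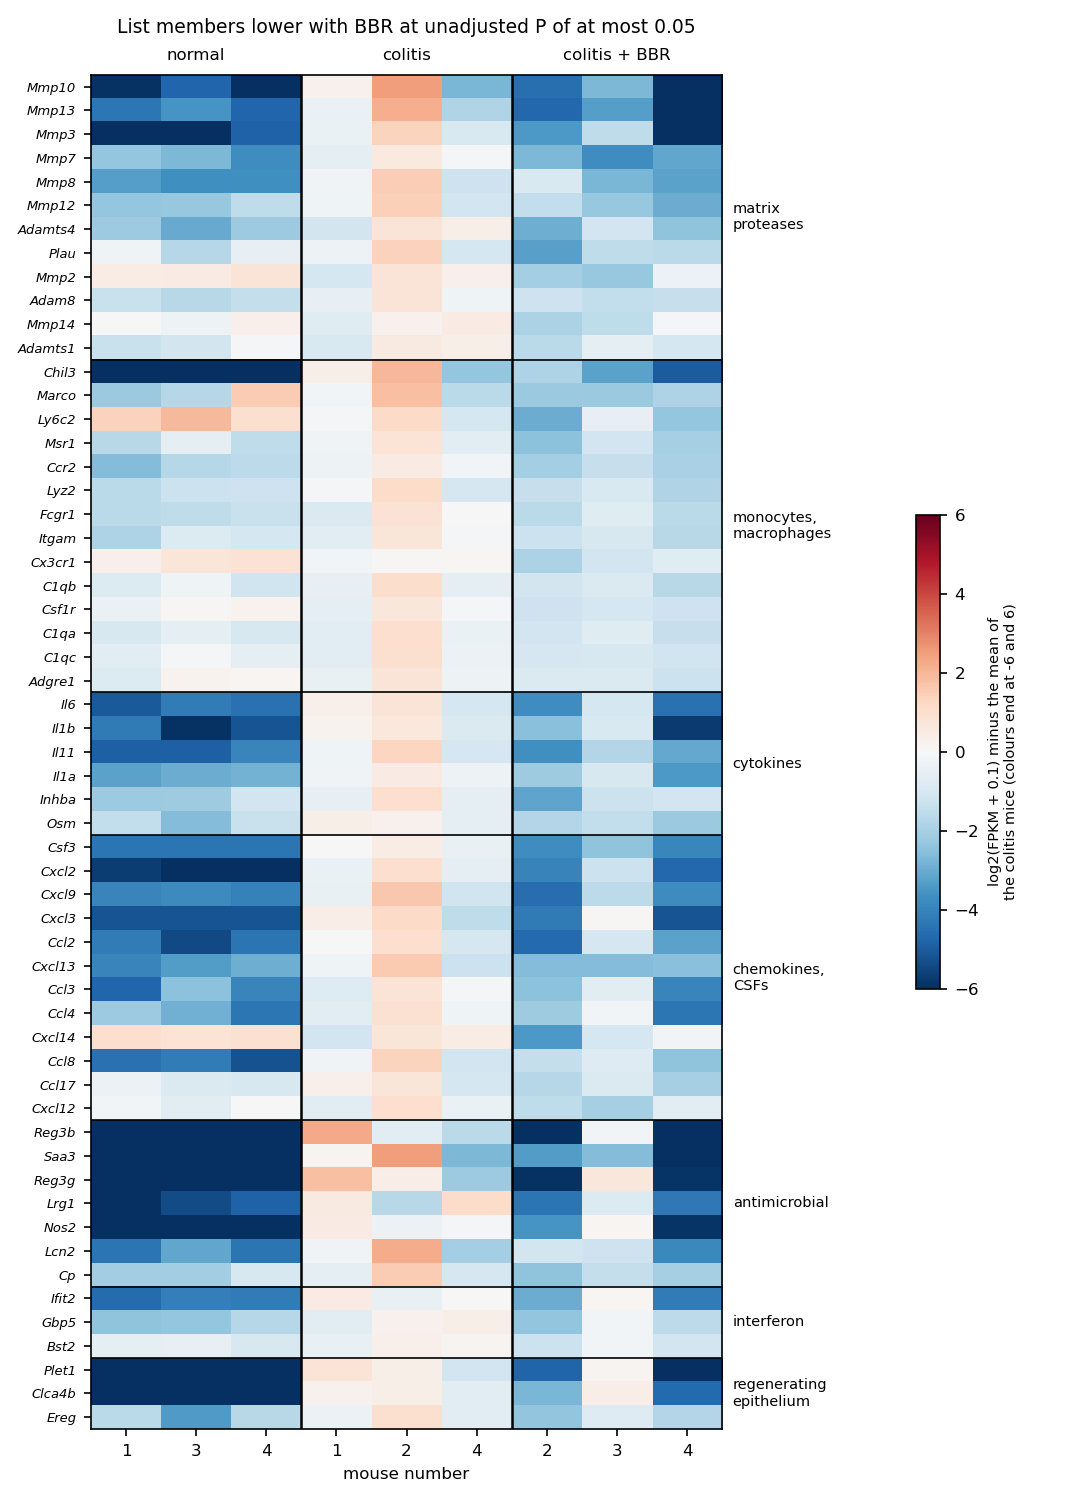
Reported members of 7 lists that were lower with BBR at an unadjusted P of at most 0.05, in 9 mice, as log2(FPKM + 0.1) minus the mean of the 3 colitis mice, with colours ending at −6 and 6. The members were chosen by this contrast, so neither their being blue with BBR nor a difference between lists is a finding. MMP and macrophage rows are blue in all 3 BBR-treated mice. The antimicrobial, interferon and regenerating epithelium rows are pale in BBR-treated mouse 3 for most genes, as are several chemokine rows. At most 4 interferon and 3 regenerating epithelium members passed the limit.

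BBR-treated mouse 3 lay inside the colitis range for 5 of the 20 macrophage markers, 8 of the 22 matrix protease genes and 9 of the 21 cytokines. It did so for 16 of the 32 interferon-stimulated genes, 10 of the 18 granulocyte markers, 12 of the 20 antimicrobial genes, 20 of the 33 chemokines and 12 of the 19 genes of regenerating epithelium, shares near the 59.5% of all genes. BBR-treated mouse 2 lay inside it for 11 of the 18 granulocyte markers, 2 of the 32 interferon-stimulated genes, 6 of the 20 antimicrobial genes, 12 of the 33 chemokines and 7 of the 19 genes of regenerating epithelium, against 47.4% of all genes. For BBR-treated mouse 4 these counts were 3, 5, 2, 6 and 8, against 44.6% of all genes. Without BBR-treated mouse 3, 58 genes passed the adjusted limit, 44 lower and 14 higher. They include Reg3b, Nos2, Plet1, Clca4b, Ifit2 and Lrg1 of the genes above, and also Csf3, Cxcl2, Il6, Il1a, Mmp13 and Mmp7. The labels do not set this mouse apart.

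Most cell cycle genes were lower with BBR in colitis mice, and most were lower in normal mice too. Of 32 tested genes 31 were lower in colitis mice receiving BBR, 14 at the P limit, 7 without overlap, and the median was −1.16. Ccnb2 (cyclin B2), which takes cells into mitosis, was at 10.1, 10.7 and 22.8 FPKM against 0.16, 3.26 and 3.13 FPKM (−3.27 ± 0.84, adjusted p = 0.486). Mki67, the gene of the proliferation marker Ki-67, was at 8.81, 12.4 and 19.5 FPKM against 0.42, 8.79 and 5.80 FPKM (−2.11 ± 0.83, adjusted p = 0.675). Cdc20, which starts the separation of chromosomes, was at 5.05, 7.47 and 16.9 FPKM against 0.18, 3.68 and 2.90 FPKM (−2.57 ± 0.85, adjusted p = 0.568). Ccna2 (cyclin A2) was at 10.7, 14.5 and 29.1 FPKM against 0.48, 8.86 and 5.25 FPKM (−2.46 ± 0.84, adjusted p = 0.597). None of these 4 genes overlapped between the groups, which the naming rule requires of Ccnb2.

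BBR-treated mouse 2 was far below all others in this list, with a median level of −0.68 on the log2(FPKM + 0.1) scale against 2.34 and 2.25 in BBR-treated mice 3 and 4 and 2.16, 2.74 and 3.56 in the colitis mice. Without it 4 genes passed the P limit and the median was −0.35, without colitis mouse 4 the count was 3, and without colitis mouse 2 it was 8. BBR-treated mouse 3 was inside the colitis range for 24 of the 32 genes. Pcna, the replication clamp, did not pass the P limit, at 64.8, 80.5 and 72.7 FPKM against 59.4, 91.4 and 47.2 FPKM (−0.19 ± 0.29, adjusted p = 1.00). In normal mice, which share no sample with this comparison, 30 of the 32 genes were lower with BBR and the median was −1.07, while over all genes there it was −0.02 and 54.1% of genes were lower. There 2 genes (Aurka and Rrm2) were lower at the P limit, against 0.842% of all genes lower there, and no gene of the list passed it for the interaction of BBR and colitis. Ccnb2 was at 21.2, 8.83 and 18.7 FPKM in normal mice 1, 3 and 4 and at 7.13, 10 and 3.37 FPKM in normal mice 1, 3 and 4 receiving BBR.

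**Figure D4:**
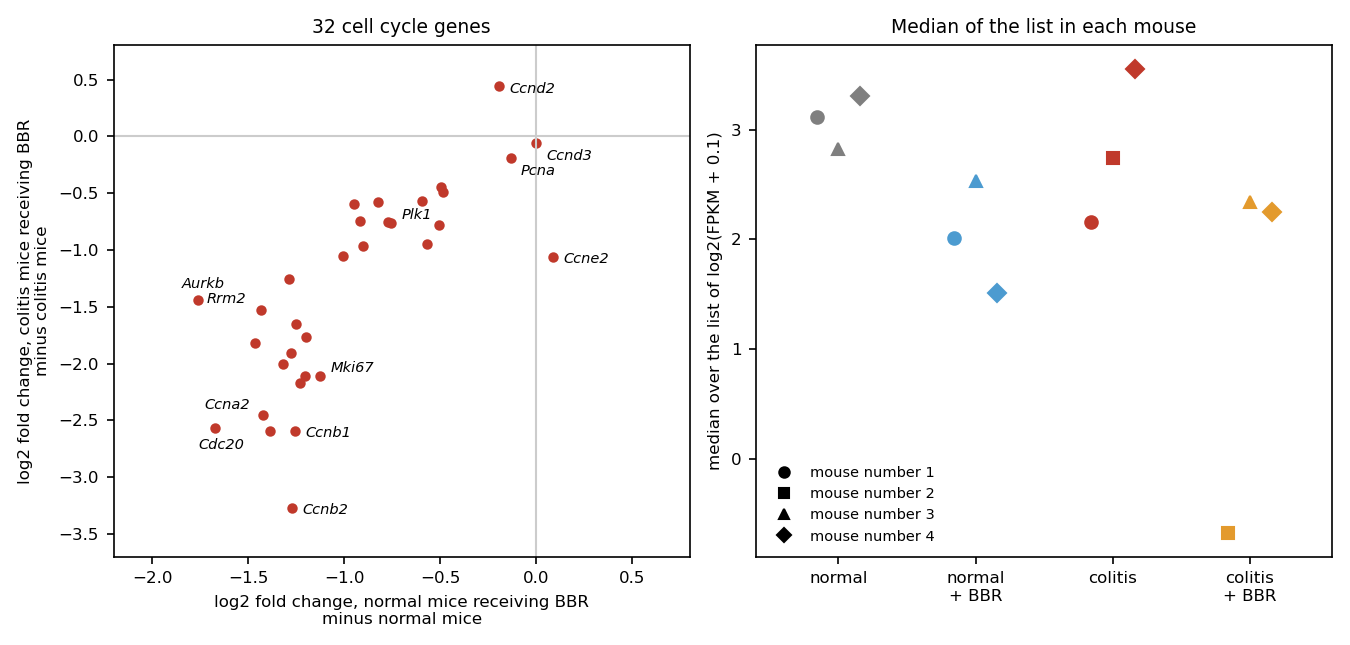
Left, log2 fold change with BBR of 32 cell cycle genes in normal mice (horizontal) and in colitis mice (vertical), where 30 and 31 of the genes lie below 0. Right, the median over the list of log2(FPKM + 0.1) in each of the 12 mice, with marker shapes for the mouse number, in which BBR-treated colitis mouse 2 stands at −0.68 and the other 11 mice between 1.51 and 3.56.

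Stromal and vascular genes were lower for a few members. Bmp7, a ligand of the BMP pathway that restrains crypt growth, was at 1.58, 3.97 and 2.47 FPKM against 0.16, 0.65 and 0.96 FPKM (−2.14 ± 0.51, adjusted p = 0.435). Bmp5, a ligand of the same pathway, was at 2.88, 4.52 and 4.24 FPKM against 0.43, 1.31 and 2.78 FPKM (−1.60 ± 0.48, adjusted p = 0.512), and neither gene overlapped. Pdgfra, a receptor of subepithelial fibroblasts, was at 2.13, 7.15 and 5.85 FPKM against 1.45, 1.69 and 3.16 FPKM (−1.14 ± 0.42, adjusted p = 0.637). These were the 3 of 21 stromal niche genes at the P limit, and the list median was −0.52. There were 7 genes at the limit without colitis mouse 1, 9 without BBR-treated mouse 4 and 5 with a block for the mice numbered 4. Over all genes 929, 1461 and 1195 were lower at the limit in these fits, against 796 as fitted. The stromal count was 2 without colitis mouse 2 or 4 or BBR-treated mouse 2. Without colitis mouse 2 the list median was −0.12 with 11 of 21 lower. Vcam1, an adhesion molecule that leukocytes hold on inflamed vessels, was at 3.05, 11.4 and 4.84 FPKM against 1.41, 2.57 and 2.69 FPKM (−1.33 ± 0.51, adjusted p = 0.651), and 3 of 12 genes of endothelium and leukocyte adhesion (Vcam1, Icam1 and Selp) were lower at the limit, with a median of −0.30. None was without BBR-treated mouse 2 or without colitis mouse 2, where the median was 0.02, and 1 was without colitis mouse 4. The median was −0.03 without BBR-treated mouse 3, −0.67 without colitis mouse 1 and −0.66 without BBR-treated mouse 4. Of 19 listed Wnt ligands, 4 had no values and 5 were below the filter, among them Wnt9b, Wnt10a and Wnt16. The other 10 summed to only 2.46, 4.55 and 6.89 FPKM against 2.49, 2.57 and 7.79 FPKM, so their fold changes rest on few reads. Of these 10, 6 were lower and 4 higher, by up to 1.64, and the median was −0.15. It was 0.09 without BBR-treated mouse 2, 0.04 without BBR-treated mouse 3, 0.05 without colitis mouse 4 and −0.45 without BBR-treated mouse 4. Wnt5a, made by subepithelial fibroblasts, was the only one to pass the limit, at 0.75, 1.78 and 2.02 FPKM against 0.26, 0.92 and 0.75 FPKM (−1.15 ± 0.45, adjusted p = 0.68), and did not pass without colitis mouse 2 or 4 or BBR-treated mouse 2. Among 20 Wnt targets and crypt stem cell genes only Cd44 passed, at 3.41, 7.42 and 6.48 FPKM against 1.84, 3.05 and 2.93 FPKM without overlap (−1.08 ± 0.33, adjusted p = 0.512), and the median was −0.07, with values from −0.61 without BBR-treated mouse 4 to 0.62 without colitis mouse 4, and it was 0.08 after centring.

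All 16 smooth muscle genes were higher with BBR, with a median of 1.16, and 1 (Pln) passed the P limit. With a block for the mice numbered 4 the count was 7, and it was 3 to 5 without colitis mouse 2 or 4 or BBR-treated mouse 2 or 3, and 0 without colitis mouse 1 or BBR-treated mouse 4. Actg2, the enteric smooth muscle actin, was at 12.1, 90.3 and 88.5 FPKM against 86.6, 72.2 and 801 FPKM (1.89 ± 0.89, adjusted p = 0.808), so that colitis mouse 1 was the lowest and BBR-treated mouse 4 the highest, and the other 4 mice were between 72.2 and 90.3 FPKM. The summed level of the 16 genes was 467, 1346 and 1299 FPKM against 962, 1019.5 and 5202 FPKM, and 2758 to 4960 FPKM in normal mice. With colitis mouse 1 left out the median was 0.31, without BBR-treated mouse 4 it was 0.26, and without colitis mouse 4 it was 1.82. How much muscle wall each sample held is not given in the sources used here, and its part in the other differences was not tested. For squamous epithelium, which borders the rectum at the anus, the 11 tested markers summed to 96.3, 448 and 44.6 FPKM against 39.4, 359.8 and 22.7 FPKM, highest in colitis mouse 2 and BBR-treated mouse 3, and its part in the other differences was not tested either.

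Among the genes higher with BBR, Slc30a10, which exports manganese from cells, differed most. It was at 0.72, 0.86 and 0.18 FPKM in the colitis mice and at 36.6, 3.56 and 6.80 FPKM in those receiving BBR, a log2 fold change of 4.01 ± 0.72 (adjusted p = 0.299), and the normal mice were at 4.19 to 8.11 FPKM. Sycn (syncollin), a protein of secretory granules, was at 226, 440.1 and 190.3 FPKM against 2209, 763 and 1639.5 FPKM (2.40 ± 0.56, adjusted p = 0.435), with the normal mice at 854 to 2452 FPKM. Klk1, a tissue kallikrein that releases kinins, was at 290.2, 1015 and 425 FPKM against 2367, 1723 and 1546 FPKM (1.88 ± 0.56, adjusted p = 0.512). St8sia5, a sialyltransferase, was at 8.47, 10.8 and 7.61 FPKM against 91.2, 17.4 and 30.2 FPKM (2.03 ± 0.47, adjusted p = 0.435), and the brush border peptidase gene Naaladl1 at 3.86, 5.95 and 2.70 FPKM against 38.95, 8.21 and 12.1 FPKM (1.96 ± 0.46, adjusted p = 0.435). The groups did not overlap in these 5 genes, which the naming rule requires. BBR-treated mouse 2 was the highest in all 5, and in all but Klk1 mouse 3 was the lowest of the BBR-treated mice.

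The other 7 of the 12 largest rises by the naming rule were lower in level. Car3, a carbonic anhydrase of muscle and fat, was at 1.13, 0.24 and 0.55 FPKM against 14.6, 13.6 and 2.10 FPKM (3.56 ± 1.51, adjusted p = 0.729), but 1 normal mouse had 103 FPKM and the others 0.57 and 0.92 FPKM. Inmt, which methylates indole amines, was at 1.2, 1.2 and 0.57 FPKM against 10.2, 2.98 and 3.81 FPKM (2.26 ± 0.63, adjusted p = 0.498). Hamp2, a relative of the iron hormone hepcidin, was at 1.13, 1.68 and 0.18 FPKM against 5.49, 2.81 and 2.54 FPKM (2.04 ± 0.91, adjusted p = 0.764). Igfbp6, which binds Igf2, was at 0.95, 4.58 and 3.57 FPKM against 6.08, 15.3 and 7.14 FPKM (1.75 ± 0.57, adjusted p = 0.568). Tnnt2, cardiac troponin T, was at 0.93, 1.48 and 1.87 FPKM against 4.03, 2.16 and 13.1 FPKM (1.76 ± 0.65, adjusted p = 0.638). Upk3b, a urothelial and mesothelial membrane protein, was at 0.07, 0.10 and 0.03 FPKM against 0.53, 5.5 and 0.43 FPKM (2.91 ± 0.93, adjusted p = 0.554), and Oaz3 at 0.95, 0.00 and 0.45 FPKM against 2.96, 1.46 and 2.37 FPKM (2.56 ± 0.74, adjusted p = 0.51).

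Transport and metabolic lists had few members past the limit. Of 39 mineral absorption and metal handling genes 3 were higher and 1 lower at the P limit, with a median of 0.10. S100g (calbindin D9k), which carries calcium across the enterocyte, was at 2.12, 2.19 and 9.79 FPKM against 729, 50.5 and 2.95 FPKM (3.71 ± 1.45, adjusted p = 0.669), so that BBR-treated mouse 4 was inside the colitis range, and the normal mice had 63.1 to 143 FPKM. Slc46a1, the folate and heme carrier, was at 17.6, 23.1 and 20.8 FPKM against 52.9, 23.0 and 29.3 FPKM (0.69 ± 0.26, adjusted p = 0.651). Of 29 genes of colonocyte ion and water transport 20 were higher, 2 at the limit, with a median of 0.26. Scnn1a, the alpha subunit of the epithelial sodium channel, was at 59.2, 56.1 and 64.1 FPKM against 139, 53.1 and 136 FPKM (0.74 ± 0.31, adjusted p = 0.717). Atp12a, the colonic proton and potassium pump, was at 239, 406 and 227 FPKM against 1530.4, 383 and 502 FPKM (1.25 ± 0.49, adjusted p = 0.674). In both, BBR-treated mouse 3 had colitis levels. The count of 2 was 8 without this mouse, with a median of 0.76, and 0 without colitis mouse 1 or 4 or BBR-treated mouse 2. It was 1 higher and 1 lower without BBR-treated mouse 4, where the median was 0.01. Over all genes the count higher was 182 as fitted, 499 without BBR-treated mouse 3 and 120 without BBR-treated mouse 2. The mineral list had 8 higher and 2 lower without BBR-treated mouse 3, with a median of 0.38, 7 and 4 without BBR-treated mouse 4, 1 and 1 without BBR-treated mouse 2, and 2 and 3 without colitis mouse 2, where its median was −0.03. With the block for the mice numbered 4 it had 4 higher and 3 lower.

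Of 34 xenobiotic response and efflux genes 23 were higher, 2 at the limit against 1 lower, with a median of 0.38. Cyp2d26, a cytochrome P450, was at 4.23, 2.22 and 3.40 FPKM against 18.1, 6.43 and 9.0 FPKM without overlap (1.65 ± 0.43, adjusted p = 0.486), whereas Cyp2c65, another P450 of the large bowel, was lower, at 20.3, 11.2 and 9.24 FPKM against 2.86, 7.42 and 5.29 FPKM (−1.39 ± 0.38, adjusted p = 0.486). Gclm, a subunit of the enzyme that limits glutathione synthesis, was at 20.1, 20.2 and 26.9 FPKM against 73.1, 22.9 and 35.0 FPKM (0.81 ± 0.35, adjusted p = 0.742). The count of 2 higher was 10 without BBR-treated mouse 3, 6 without BBR-treated mouse 4, 5 with the block for the mice numbered 4, and 1 without colitis mouse 1 or BBR-treated mouse 2. The median was 0.14 without BBR-treated mouse 2, 0.17 without colitis mouse 2 and 0.84 without BBR-treated mouse 3. The enzymes that make retinoic acid from retinal went both ways. Aldh1a1 was at 14.5, 7.41 and 6.49 FPKM against 51.6, 17.8 and 16.2 FPKM without overlap (1.46 ± 0.41, adjusted p = 0.51), and Aldh1a3 at 24.7, 107 and 17.8 FPKM against 2.89, 24.2 and 3.18 FPKM (−2.55 ± 0.89, adjusted p = 0.608). Of the 30 retinoid and steroid genes 2 were higher and 3 lower at the limit, with a median of 0.03, and these counts were 7 and 6 without BBR-treated mouse 3. The 3 lower were 6 without colitis mouse 4 and 1 without colitis mouse 2, BBR-treated mouse 2 or BBR-treated mouse 4, and the median ran from −0.23 to 0.18 with each mouse left out.

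Several lists held no member that passed the P limit in either direction. Of 23 circadian clock genes 18 were higher, the median being 0.27, the 23 genes of cholesterol synthesis 18 lower and −0.21, the 24 genes of fatty acid oxidation and ketogenesis 17 higher and 0.07, the 22 immediate early genes 14 higher and 0.20, the 15 goblet cell genes 12 higher and 0.39, and the 6 red blood cell genes all lower and −0.71. Single mice decided several of these directions. Without BBR-treated mouse 4, 15 of the clock genes were lower with a median of −0.15, the immediate early genes had −0.04, and 2 of the 6 red blood cell genes were lower with a median of 0.60. Without colitis mouse 2 the clock median was 0.04, that of fatty acid oxidation −0.07 (−0.03 without BBR-treated mouse 2) and that of the red blood cell genes 0.32. The cholesterol median ran from −0.02 without colitis mouse 1 to −0.51 without colitis mouse 2, and the goblet cell median from 0.20 without colitis mouse 1 to 0.75 without colitis mouse 2. With each mouse left out, 0 to 5 clock genes (5 without BBR-treated mouse 3), 0 to 5 goblet cell genes (5 without colitis mouse 2) and 0 to 3 immediate early genes (3 without colitis mouse 2) were higher at the limit, and 0 to 4 cholesterol genes (4 without BBR-treated mouse 4) and 0 to 2 goblet cell genes (2 without BBR-treated mouse 3) were lower. Among clock genes Npas2, a partner of Arntl, was the one without overlap, at 6.5, 9.43 and 5.65 FPKM against 10.3, 10.5 and 11.9 FPKM (0.62 ± 0.29, adjusted p = 0.809). Of 23 hypoxia and glycolysis genes 1 was lower and 1 higher. Ndrg1, a stress-induced gene, was at 119, 80.2 and 47.4 FPKM against 30.2, 30.3 and 27.9 FPKM (−1.38 ± 0.28, adjusted p = 0.427), and Vegfa, the endothelial growth factor, at 33.2, 41.1 and 27.2 FPKM against 91.9, 86.7 and 36.0 FPKM (0.98 ± 0.35, adjusted p = 0.631). Of the other cell type lists, 1 gene was lower at the limit among 14 enteroendocrine genes (Cpe), 1 was higher among 12 tuft cell genes (Il25), and 2 each were lower among 15 genes of enteric neurons (Ret and Tac1) and 11 of squamous epithelium (Krt6a and Krt6b). The enteroendocrine count was 5 without BBR-treated mouse 3, 4 without colitis mouse 4 and 0 without any other mouse, and the tuft cell count 6 without colitis mouse 2, 4 without BBR-treated mouse 4 and 0 without any other mouse. Of the neuron genes 9 were lower and 6 higher, by up to 1.16, and their median of −0.15 ran from −0.74 without colitis mouse 1 to 0.18 without colitis mouse 2, with 4 of 15 lower without BBR-treated mouse 2. With each mouse left out, 0 to 3 neuron genes and 0 to 3 squamous genes were lower at the limit.

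The remaining genes of the naming rule belong to no list. Myot (myotilin), a protein of muscle Z discs, was at 8.55, 2.64 and 3.72 FPKM in the colitis mice against 0.18, 0.64 and 0.15 FPKM with BBR and was listed at 0 in all 3 normal mice (−3.59 ± 0.50, adjusted p = 0.0875). Serpina3f was at 2.05, 12.6 and 1.97 FPKM against 0.10, 0.55 and 0.19 FPKM (−3.52 ± 0.79, adjusted p = 0.435) and Serpina3m at 2.18, 14.96 and 3.69 FPKM against 0.63, 1.11 and 0.20 FPKM (−2.98 ± 0.70, adjusted p = 0.435). These 2 protease inhibitors belong to a family of near-identical copies, between which reads can be split. Khdc1a was at 48.0, 45.4 and 11.3 FPKM against 1.78, 6.68 and 2.16 FPKM (−3.25 ± 0.64, adjusted p = 0.418), and Gm15056, a beta-defensin-like gene, at 0.98, 5.0 and 0.19 FPKM against 0.13, 0.00 and 0.00 FPKM (−3.15 ± 0.85, adjusted p = 0.486). Sprr2i, of the small proline-rich family, was at 0.93, 1.87 and 0.27 FPKM and Pet117, a mitochondrial assembly factor, at 1.51, 1.58 and 0.43 FPKM in the colitis mice, and both were listed at 0 in all 3 BBR-treated mice, so no fold is given (adjusted p = 0.164 for Sprr2i and adjusted p = 0.213 for Pet117). Pet117 was at 1.28 to 2.19 FPKM in normal mice.

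The effect of BBR was not shown to differ between colitis mice and normal mice for any gene, since no gene passed the adjusted limit for the interaction of BBR and colitis and 2.42% of genes reached the P limit for it. In normal mice, BBR gave 0.842% of genes lower and 0.516% higher at the P limit and none past the adjusted limit. There the median log2 fold change was 0.07 for granulocytes, −0.04 for monocytes and macrophages, 0.10 for chemokines and colony-stimulating factors, −0.20 for matrix proteases and −0.20 for cytokines. At the P limit of the interaction there were 8 of 22 matrix protease genes, 8 of 33 chemokines, 6 of 20 macrophage markers and 5 of 21 cytokines. Members listed near 0 in normal mice could hardly fall there. In normal mouse 1 the median log2(FPKM + 0.1) was −3.32 for granulocytes, the floor of the scale, and −1.56 for cytokines. For such lists neither the medians nor the interaction counts can tell whether BBR acts alike in normal mice. The lists were also chosen with earlier results of these data known. For Mmp13 the interaction was −4.65 on the log2 scale (adjusted p = 1.00).

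**Figure D5:**
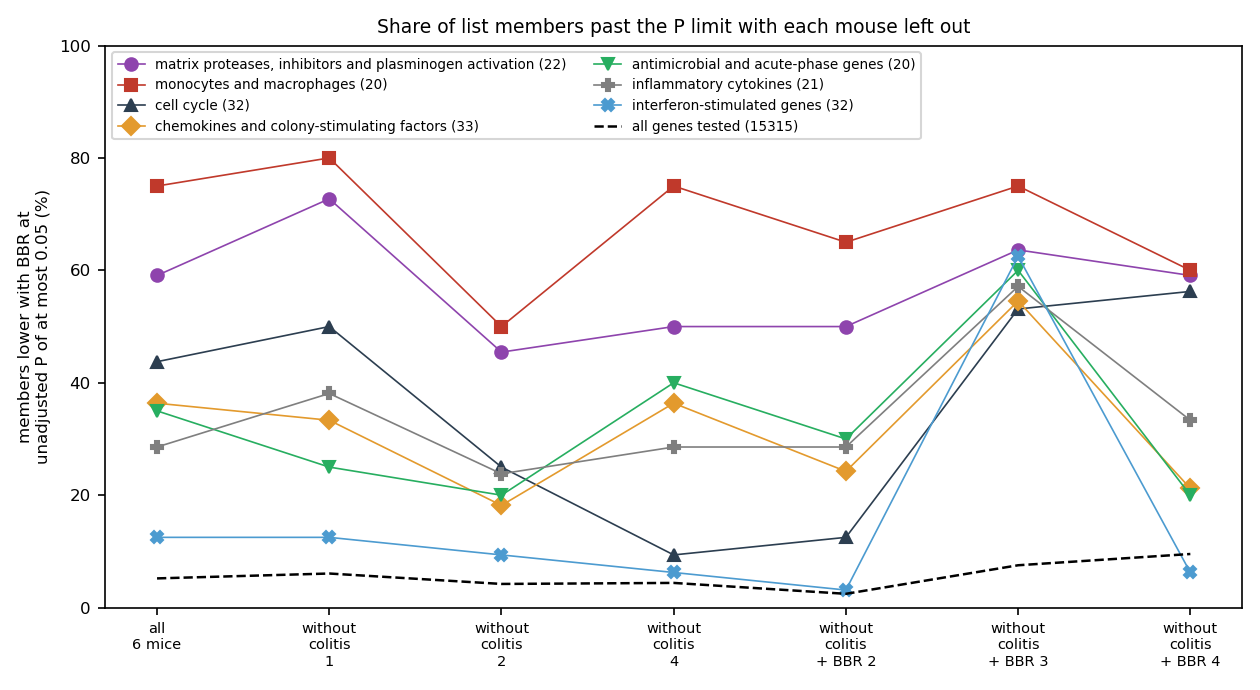
Share of the members of 7 lists, and of all genes (dashed), that were lower with BBR at an unadjusted P of at most 0.05, with all 6 mice and with each mouse left out (points, joined by lines within a list). Matrix protease and macrophage lists stay at or above 45.5% throughout, the interferon list runs from 3.12% without BBR-treated mouse 2 to 62.5% without BBR-treated mouse 3, and the cell cycle list from 9.38% without colitis mouse 4 to 56.2% without BBR-treated mouse 4.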

How the data were processed

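Total RNA of rectal samples of 12 mice was depleted of rRNA and sequenced, and the authors filtered reads with SOAPnuke, aligned them with Bowtie2 2.2.5 and estimated expression with RSEM 1.2.12, by the methods and the submitters' processing notes, which name mm9. The labels name another library kit than the methods. The values the authors deposited are taken as FPKM from their range and were not distinguished from TPM. Groups and mouse numbers came from the labels. Genes with a mean of at least 0.1 FPKM were fitted as log2(FPKM + 0.1), a scale that understates the change of low genes, with limma 3.58.1 in R 4.3.3 over all 12 mice, with 1 mean per group, a trend and Benjamini-Hochberg adjustment. An exact permutation test of 3 against 3 cannot go below p = 0.1. The fit was tested on simulated data of this comparison with 200 of 15315 genes changed, and called 13 of them at a log2 fold change of 1, 130 at 2 and 195 at 4. It called 0, 7 and 9 unchanged genes there. With a change of 0, none was called but 800 genes reached the P limit, where the real comparison had 978. Named genes were the 12 largest rises and falls with an unadjusted P of at most 0.05, a mean of at least 1 FPKM over the 6 mice and no overlap, the 5 smallest P, and list members chosen after their values were seen. Some list members are counted but not reported by name here. The members and lists were chosen with earlier results of these data known. The worth of a read was found from spacings of low values in 1579 genes that have 1 transcript, and covers counting error only. Alternatives were other pseudocounts, filters, scalings and blocks, and leaving out each mouse. Tables and figures were made in Python 3.11.15 with pandas 2.3.3 and matplotlib 3.10.9.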

Additional observations from a re-analysis of the deposited data

How the results depend on the processing

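With 3 mice a group, large spread within groups and no read counts, few small differences could be called. No gene passed the adjusted limit as fitted, and the count was 4 with a pseudocount of 1, 2 with 0.01, 1 with no filter on low values, 3 with no trend, 2 with a block for the mice numbered 4 and 0 to 58 with each mouse left out in turn (58 without BBR-treated mouse 3). The genes past the P limit numbered 978, and 538 in a fit of the 6 mice alone, 1515 with the block for the mice numbered 4 and 496 to 1662 with each mouse left out (496 without BBR-treated mouse 2, 1662 without BBR-treated mouse 4). The genes without overlap numbered 1084, and 4468 among the mice numbered 1 to 3, where 2 mice face 2, and 1506 to 3214 with each mouse left out. With a replicate block, 1 gene passed the adjusted limit and 1685 the P limit. The deviations of same-numbered mice from their group means correlated at 0.29 to 0.39 for number 1, 0.11 to 0.14 for number 3, 0.36 to 0.75 for number 4 and 0.08 for number 2. The numbers were not taken as pairs, since number 2 lay under the limit of 0.1 set for every pair and colitis mouse 2 correlated best with BBR-treated mouse 3 (0.40). After centring each mouse on its median, 458 genes were higher and 535 lower at the P limit. Of the genes named with values, those that changed direction under an alternative were not past the P limit. Cd14 was at a log2 fold change of 0.00039 among the mice numbered 1 to 3 and at −0.87 to 0.00459 with each mouse left out, Pcna at 0.028 and at −0.45 to 0.025, Saa1 at −0.31 after quantile normalization and at −0.12 to 1.52, Cd68 at −0.59 to 0.30 and Tnf at −1.88 to 0.075. The cause was not tested. No gene passed the adjusted limit for the interaction under any alternative run.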
